A study of Mus musculus with 2 samples.

Results

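The CCN proteins are a family of secreted matricellular proteins, encoded in the mouse by the 6 genes Ccn1 to Ccn6. All probe sets that the array annotation pairs with exactly 1 of these symbols, or with the older names Cyr61, Ctgf, Nov, Wisp1, Wisp2 and Wisp3, were taken as members. This gave 11 probe sets for the 6 genes, out of 34958 probe sets with 1 symbol for 18194 genes. The RNA came from mouse embryonic fibroblasts (MEFs), connective tissue cells grown out of C57BL/6 embryos at embryonic day 13.5 and kept for 2 weeks in culture without treatment. The wildtype group was 1 array and the Malat1 knock-out group, from mice lacking the nuclear long noncoding RNA Malat1, was 1 array of the Affymetrix Mouse430_2 type. The sources used here do not give how many embryos went into each array or which part of the Malat1 gene was altered.

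Matricellular proteins sit in the extracellular matrix without building it, and change how cells respond to matrix and to growth factors. CCN proteins are made of cysteine-rich modules that resemble parts of insulin-like growth factor binding proteins, von Willebrand factor, thrombospondin and a cystine knot, and they act mainly through integrins, heparan sulfate proteoglycans and low-density lipoprotein receptor-related proteins. Ccn1 and Ccn2 are induced by serum, mechanical tension and TGF-beta and are textbook targets of the Hippo pathway effectors YAP and TAZ, which act through TEAD transcription factors. Ccn4 was described as a gene induced by Wnt1. Ccn5 lacks the cystine knot module that its relatives carry and is known as an inhibitor of growth in smooth muscle cells.

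Signals are log2 values per probe set, and differences are given as knock-out minus wildtype. A probe set was called measured on an array when its signal was at or above that array's median, 5.39 on the wildtype array and 5.44 on the knock-out array. Values reached up to 14.69 and 14.71. With 1 array in each group there is no replicate error, so no difference has a p-value. The only spread at hand is that between probe sets of the same gene, whose differences had a pooled SD of 0.199 over 4883 genes with several measured probe sets. That spread reflects probe design and covers no variation between cultures.

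The labels were checked with Malat1 itself. Its brightest probe set read 9.80 on the wildtype array and 4.53, below the floor, on the knock-out array, and 6 of its 7 probe sets were measured on the wildtype array alone. Xist was measured on the knock-out array alone and Kdm5d, Uty and Eif2s3y of the Y chromosome on the wildtype array alone, so the sex of the embryos and the genotype cannot be told apart in any value below. All 10 fibroblast markers were measured on both arrays.

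Among the CCN genes, Ccn5 was the member that differed between the arrays by a large factor. It was 2.76-fold lower on the knock-out array. Ccn1 and Ccn2, the YAP and TAZ targets, differed by 0.13 and 0.08 log2 units, both slightly higher on the knock-out array at their brightest probe set. Ccn4 was modestly lower at both of its probe sets, Ccn3 was lower at 1 probe set and nearly level at the other, and Ccn6 was below the floor on both arrays. A gene was represented by its probe set with the highest mean signal, and 5 of the 6 CCN genes were measured on both arrays. Of these 5, 1 was at least 2-fold lower and 0 were at least 2-fold higher. Over all 11295 genes measured on both arrays, 0.266% were at least 2-fold lower and 0.0708% at least 2-fold higher. At the smaller size of 1.5-fold the count stayed at 1 lower and 0 higher, against 1.61% and 0.832% of all measured genes.

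**Figure D1:**
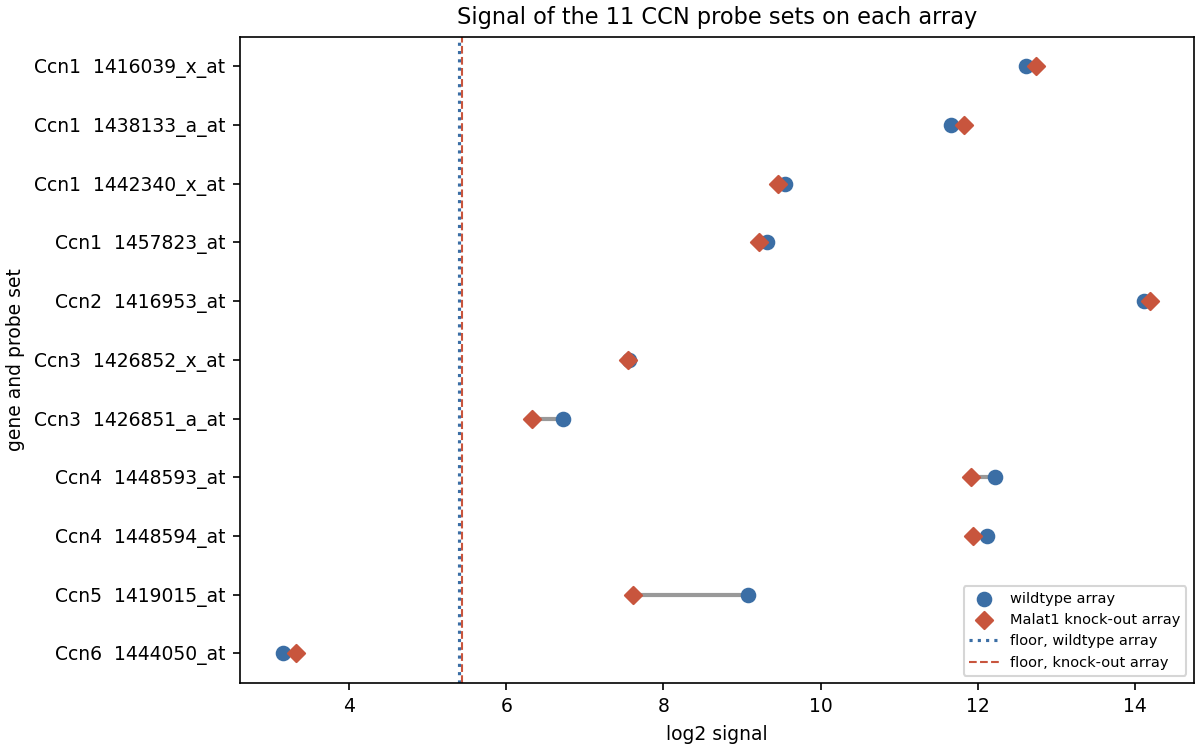
Log2 signal (horizontal axis) of each of the 11 CCN probe sets on the wildtype array (circles) and the Malat1 knock-out array (diamonds), joined by a line, with the floor of each array as a vertical line. The long line is Ccn5, from 9.07 to 7.61, and the Ccn6 probe set lies left of both floors.

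By sign alone the family was split. The difference was below 0 for 3 genes and above 0 for 2, and 59.8% of all measured genes were below 0 and 39.2% above, so the family's split is close to the background. Over probe sets, 7 of the 10 measured CCN probe sets were below 0, against 61.7% of all 19187 measured probe sets with 1 symbol. The median difference was -0.02 over the 5 genes, beside -0.05 over all measured genes, and its sign turned under each of the other scalings of the arrays, where it was 0.05, 0.08 and 0.05. The members are therefore described apart.

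Ccn5, formerly Wisp2, is represented by the single probe set 1419015_at. Its signal was 9.07 on the wildtype array and 7.61 on the knock-out array, which on a linear scale is 539 and 195 signal units. Both readings were above the floor, by 3.68 and 2.17 log2 units. The difference of -1.47 was the 10th lowest among the 11295 measured genes, and 0.0974% of measured genes had a larger difference in either direction. Differences spread more widely among dim than among bright genes, so Ccn5 was also set beside the 2292 genes whose mean signal lay within 0.5 log2 units of its own. Of these, 5 had a lower difference, and their SD was 0.236 around a median of -0.10. No other probe set for Ccn5 was in the annotation, so the value rests on 1 probe set on 1 array per genotype.

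**Figure D2:**
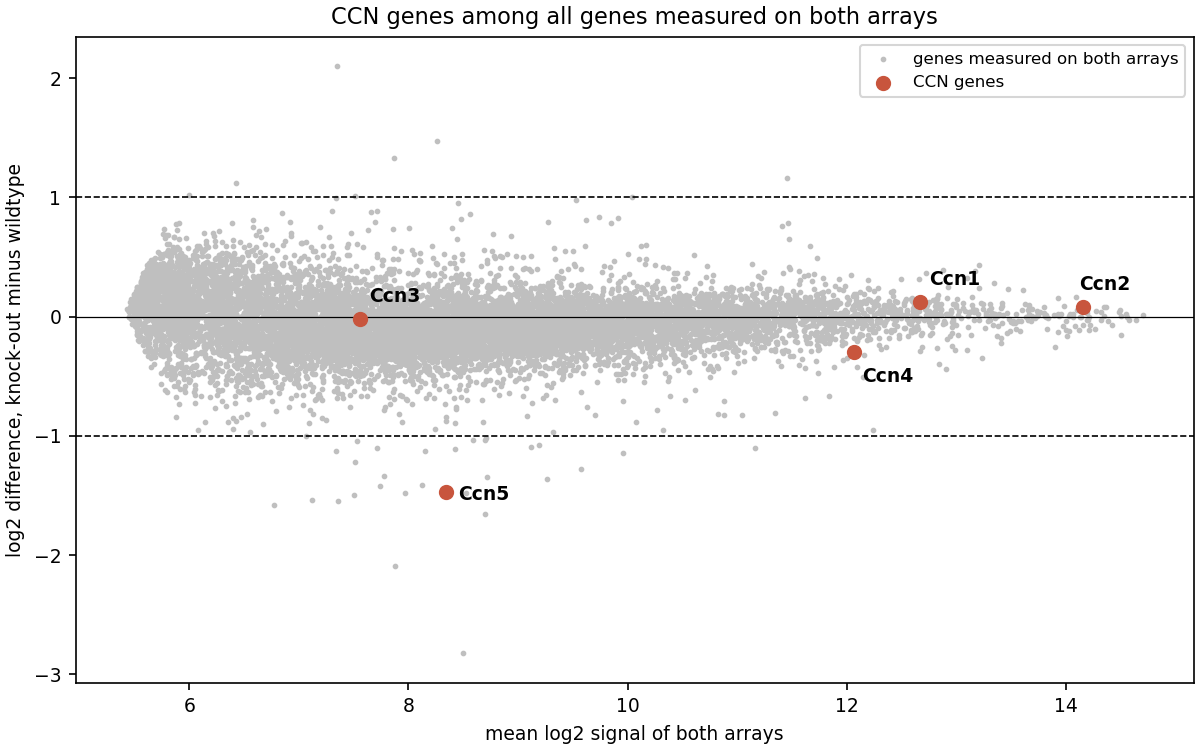
Difference between the arrays (vertical axis, log2, knock-out minus wildtype) against the mean signal of both arrays (horizontal axis, log2) for the 11295 genes measured on both arrays (grey) and the 5 measured CCN genes (red), with dashed lines at 2-fold. Ccn5 lies at -1.47, outside the dashed lines, while the other 4 lie between -0.30 and 0.13.

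Markers of other cell types that such a culture can hold also differed between the arrays, and their part in the Ccn5 difference was not tested. All 7 macrophage markers were measured, and their summed linear signal was 3478 on the wildtype array and 2741 on the knock-out array. Lyz2, at 11.20 and 10.74, was the brightest and weighs most in that sum. Of the 7 markers 6 were lower, against 59.8% of all measured genes. The other, Csf1r, differed by 0.07, with its other probe sets at -0.21 and 0.15. For epithelial cells 4 of 6 were measured, at 511 and 730, with Cdh1 and Krt8 below the floor. For endothelial cells 2 of 5 were measured, at 250.2 and 602, with the defining genes Pecam1, Cdh5 and Tie1 below the floor. Emcn was the brighter of the 2 measured and weighs most in that sum. It differed by 1.47 and had no other measured probe set. Kdr, the dimmer one, read 6.04 and 6.51, a difference of 0.47. The 4 markers of smooth muscle and pericytes summed to 30150 and 31455, and among them the pericyte marker Rgs5 read 9.04 and 10.02, a difference of 0.98, with its other 3 probe sets at 0.51 to 0.99. The 10 fibroblast markers summed to 87697 and 77818, with Col1a1 at -0.95, the growth factor receptor Pdgfra at -0.73 and Dcn at 0.74. Because fewer cells of a type and less RNA per cell cannot be told apart in RNA from a whole culture, a lower Ccn5 signal can stand for either.

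Ccn4, formerly Wisp1, was the next most different member at its representing probe set. Probe set 1448593_at read 12.22 on the wildtype array and 11.92 on the knock-out array, a difference of -0.30. Probe set 1448594_at, designed from the same transcript record, read 12.11 and 11.94, a difference of -0.17. Both Ccn4 probe sets were thus lower on the knock-out array, and their differences lay 0.126 apart, within the pooled SD of 0.199. Among all measured genes 11.6% had a lower difference than the brighter Ccn4 probe set. Bright genes varied less, and among the 418 genes within 0.5 log2 units of its signal 14 had a lower difference, with a median of 0.01 and an SD of 0.159 for those genes. At 1.23-fold and 1.13-fold, neither probe set reached the 1.5-fold mark.

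Ccn3, formerly Nov, is a member often described as acting against Ccn2. Its brighter probe set, 1426852_x_at, read 7.57 and 7.55, a difference of -0.02. Its dimmer probe set, 1426851_a_at, read 6.73 and 6.33, a difference of -0.40 (1.32-fold). Both were designed from the same transcript record, yet their differences lay 0.386 apart, and 78.4% of genes with several measured probe sets had a smaller range. The ending _x_at marks a set with probes that can also bind related transcripts. The brighter set's sign turned to 0.05, 0.11 and 0.09 under the other scalings, whereas the dimmer set stayed lower in each of them, so the size of a Ccn3 difference depends on which set is read.

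Ccn1, formerly Cyr61, an early response gene whose product supports cell adhesion and blood vessel growth, has 4 probe sets, and all were measured. The brightest, 1416039_x_at, read 12.61 on the wildtype array and 12.74 on the knock-out array, a difference of 0.13. Probe set 1438133_a_at read 11.66 and 11.82, a difference of 0.16. The dimmer sets 1442340_x_at and 1457823_at share a source record, and they read 9.54 and 9.46, and 9.32 and 9.22, for differences of -0.08 and -0.10. The brighter sets were therefore higher and the dimmer sets lower on the knock-out array, with the same signs under each of the other scalings. The range over the 4 sets was 0.259, their mean difference was 0.03 ± 0.135 (SD over 4 probe sets of the same RNA, which are not replicates), and 60.8% of genes with several measured probe sets had a smaller range. Among 252 genes of similar signal, 70 had a larger difference in either direction than the brightest Ccn1 set.

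Ccn2, formerly Ctgf, connective tissue growth factor, is a driver of matrix production in fibrosis and was represented by probe set 1416953_at alone. It read 14.11 on the wildtype array and 14.20 on the knock-out array, a difference of 0.08 (1.06-fold). Both readings lay close to the top of the range of these arrays. The small positive sign was the same under the other scalings, at 0.15, 0.08 and 0.05. Among the 70 genes with a mean signal within 0.5 log2 units, the SD of the difference was 0.0726, 14 genes had a larger difference in either direction and 66 had a lower difference than Ccn2.

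Ccn6, formerly Wisp3, read 3.16 on the wildtype array and 3.33 on the knock-out array at its only probe set, 1444050_at. Both signals were below the floor, by 2.23 and 2.10 log2 units, so no ratio is given. Of all 18194 genes, 62.1% were measured on both arrays.

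The promoter sequences of Ccn1 and Ccn6 are shown as those available for the family, the former a textbook TEAD target that was bright on both arrays and the latter the member below the floor. The promoter table used, from RefSeq on assembly GRCm38.p6, gave a sequence for 2 of the 6 members, and the stretches are the 250 bases before the annotated transcription start, written on the strand of the gene. The Ccn1 stretch is chr3:145649986-145650235 on the minus strand and the Ccn6 stretch chr10:39163795-39164044 on the minus strand. Capitals mark CATTCC, the core motif bound by TEAD factors, searched on both strands.
Ccn1: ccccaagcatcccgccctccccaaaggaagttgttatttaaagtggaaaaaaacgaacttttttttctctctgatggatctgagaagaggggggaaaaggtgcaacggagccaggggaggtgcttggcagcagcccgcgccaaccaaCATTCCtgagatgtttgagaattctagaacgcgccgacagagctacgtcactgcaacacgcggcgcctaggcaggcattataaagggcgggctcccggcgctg
Ccn6: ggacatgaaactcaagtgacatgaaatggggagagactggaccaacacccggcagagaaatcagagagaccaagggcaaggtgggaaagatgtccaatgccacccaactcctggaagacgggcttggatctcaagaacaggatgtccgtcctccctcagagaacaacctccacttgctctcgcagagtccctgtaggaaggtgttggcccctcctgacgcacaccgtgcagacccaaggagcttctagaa
The Ccn1 stretch held 1 match, which begins 103 bases before the start, and the Ccn6 stretch held 0. The motif occurs in 12.6% of 32851 promoter stretches of the same length, so a match is common and describes these letters only. A TATAAA match, searched on both strands and found in 12.4% of the stretches, begins 25 bases before the start in Ccn1 and was not found in Ccn6. The SMAD core CAGAC, in 42.2% of stretches, was found in Ccn6 and not in Ccn1. The TCF and LEF core CTTTGA, the AP-1 motif TGANTCA and the CArG motif of SRF, on both strands, matched neither stretch, and occur in 13.8%, 6.75% and 1.47% of stretches. The matches given here do not overlap each other.

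The genes through which CCN proteins act, and those known to be controlled with them, were then listed by role. Of 21 measured receptors and binding partners 14 were lower on the knock-out array and 7 higher, near the 59.8% lower among all measured genes, with a median of -0.13, beside -0.05 over all measured genes. At 1.5-fold, 1 was lower and 1 higher by the brightest probe sets, against 1.61% and 0.832% of all measured genes. Dimmer probe sets of Fn1 and Fgfr1 reached -0.77 and -0.64, beside -0.10 and -0.31 at their brightest sets. The integrin subunit Itga5, which pairs with Itgb1 as the fibronectin receptor, read 8.68 and 8.06, a difference of -0.62, with its other 2 measured probe sets at -0.87 and -0.44. Dcn, the collagen-binding proteoglycan decorin, which also binds Ccn2, read 8.02 and 8.77, a difference of 0.74. The Wnt co-receptor Lrp6 and the receptor Notch1 differed by -0.31 and -0.31, and a second Lrp6 probe set by 0.11 the other way. With the median difference set to 0, quantile normalization and loess centring, 12, 13 and 13 of the 21 were lower, where 47.6%, 44.8% and 47.4% of all measured genes were lower and their median was 0.01, 0.02 and 0.01. These shares and medians are the background for the counts of the other lists under the same scalings.

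The Hippo pathway and its TEAD factors had a median of -0.05, equal to that of all measured genes, with 14 of 23 lower and 9 higher, a share near the 59.8% of all measured genes. This median turned to 0.01 with the median difference of the arrays set to 0. At 1.5-fold, 1 of the 23 was lower and 0 higher by the brightest probe sets, against 1.61% and 0.832% of all measured genes. The lower one was the atypical cadherin Fat4, an upstream receptor of the pathway, at 9.24 and 8.60 (-0.64). Its second probe set differed by -0.74. The scaffold Sav1, the factor Tead2 and the tumour suppressor Nf2 differed by -0.43, -0.30 and -0.27. Second probe sets of Sav1 and Nf2 differed by -0.10 and -0.21.

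Genes other than Ccn1 and Ccn2 that YAP and TAZ are known to induce had values on both sides. Of 24 measured, 15 were lower and 9 higher, near the 59.8% lower among all measured genes. At 1.5-fold, 1 was lower and 2 higher by the brightest probe sets, against 1.61% and 0.832% of all measured genes. The median of -0.05 turned to 0.01, 0.04 and 0.03 under the other scalings, as that over all measured genes turned above 0. Crim1, a membrane protein that binds bone morphogenetic proteins, read 9.54 and 10.55, a difference of 1.01, with a second probe set at 0.50. Ankrd1, a muscle ankyrin repeat protein often measured beside Ccn1 and Ccn2 as a readout of YAP, read 11.03 and 11.79, a difference of 0.76, with its second probe set at 0.71. Nt5e, the ectoenzyme CD73, read 7.29 and 6.53, a difference of -0.76, and its second probe set differed by 0.24 the other way. Gadd45a, a stress-induced growth arrest gene, differed by -0.53. A dimmer probe set of Tgfb2 reached -0.59, beside -0.01 at its brightest set. Ankrd1 and Crim1 were thus higher at every measured probe set, while the corresponding values of Ccn1 and Ccn2 stayed within 0.16.

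**Figure D3:**
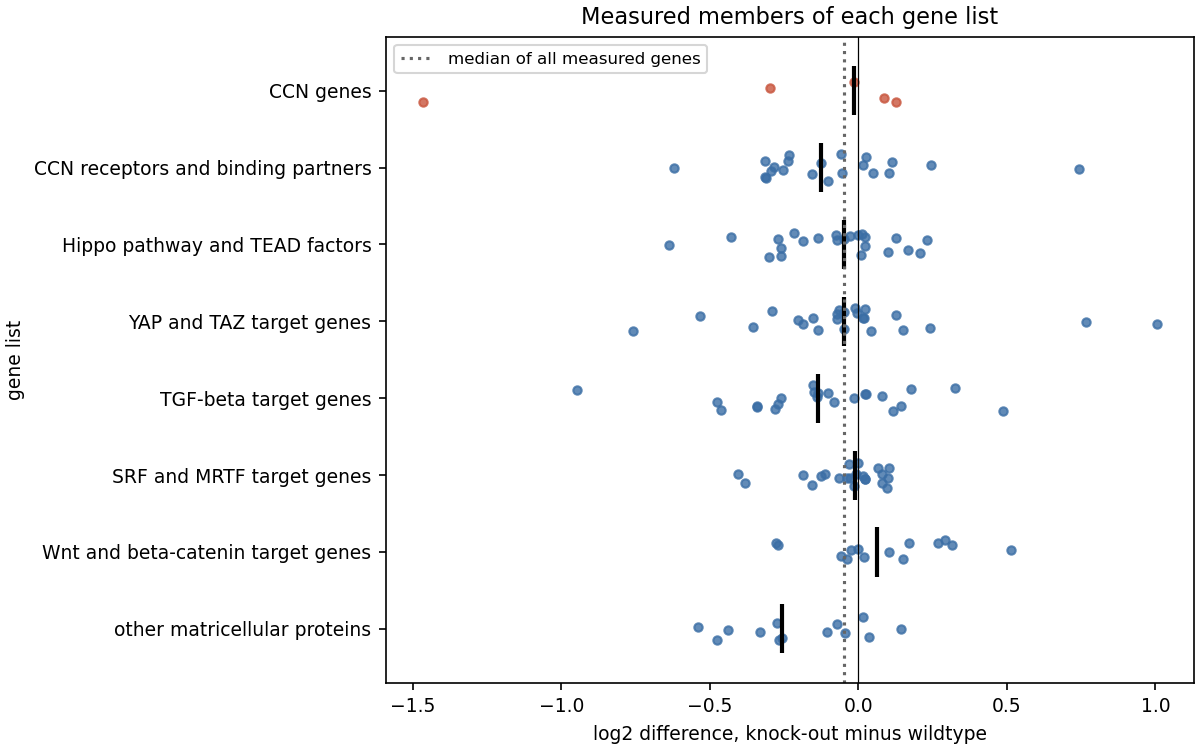
Difference between the arrays (horizontal axis, log2, knock-out minus wildtype) of the measured genes (points, shifted vertically at random within each row) of the CCN family and of 7 lists of partners, regulators and co-regulated genes, with the median of each list as a black bar and the median of all measured genes, -0.05, as a dotted line. The medians lie between -0.26 for other matricellular proteins and 0.06 for Wnt and beta-catenin targets.

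TGF-beta is a main inducer of Ccn2 in fibroblasts. Of 23 measured TGF-beta target genes 15 were lower and 8 higher, near the 59.8% lower among all measured genes, with a median of -0.13. Under the other scalings 14 to 16 were lower, against 44.8% to 47.6% of all measured genes. The list is not limited to genes that TGF-beta alone controls. Id1, Id2, Id3 and Smad6 were among the 8 higher. At 1.5-fold, 1 of the 23 was lower and 0 higher by the brightest probe sets, against 1.61% and 0.832% of all measured genes. The lower one was Col1a1, which encodes the more abundant chain of type I collagen, at 12.71 and 11.76 (-0.95). The second Col1a1 probe set differed by -0.33. The lowest dimmer probe sets of Col1a2, Fn1 and Pmepa1 differed by -1.37, -0.77 and -0.62, beside -0.15, -0.10 and -0.27 at their brightest sets. Id1, an inhibitor of differentiation induced by bone morphogenetic proteins, differed by 0.49, the matrix protein Tgfbi by -0.48 and the AP-1 subunit Junb by -0.46. Acta2, smooth muscle actin, read 14.54 and 14.56 at its brightest probe set, while its dimmer sets differed by -0.22 and -0.62.

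Targets of SRF and its cofactors, the actin-regulated route to Ccn1 and Ccn2, were close to level at their brightest probe sets. Of 22 measured 13 were lower and 9 higher, near the 59.8% lower among all measured genes, with a median of -0.01. Under median, quantile and loess scaling the median was 0.05, 0.002 and -0.02, and 7, 9 and 14 were lower. Of all measured genes 47.6%, 44.8% and 47.4% were then lower. At the brightest probe sets 0 passed 1.5-fold, against 1.61% lower and 0.832% higher among all measured genes. Dimmer sets of Tpm2 and Acta2 reached -0.74 and -0.62. The focal adhesion genes Tgfb1i1 and Zyx differed by -0.40 and -0.38, and a second Zyx probe set by 0.13 the other way. The actin-binding genes Lmod1 and Flna differed by -0.19 and -0.16.

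Wnt and beta-catenin targets, the group to which Ccn4 belongs, had a median above 0. Of 14 measured 5 were lower and 8 higher, with the median at 0.06, beside 39.2% higher among all measured genes. Under the other scalings 10 to 12 were higher, where 52.4% to 55.0% of all measured genes were higher as well. Axin2, a feedback inhibitor induced by beta-catenin, was the remaining gene and read 5.82 on both arrays. Bambi, a decoy receptor for TGF-beta family ligands, read 8.52 and 9.03 (0.51). The Wnt inhibitors Apcdd1 and Dkk2 differed by 0.31 and 0.29, and Myc by -0.28. The other 3 measured Apcdd1 sets differed by 0.01 to 0.49. No member passed 1.5-fold, against 1.61% lower and 0.832% higher among all measured genes.

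Of the 13 other matricellular proteins measured, 10 were lower and 3 higher, and their median was -0.26, beside 59.8% lower among all measured genes. Under the other scalings 9 to 11 were lower and the median was -0.20 to -0.15. Without a floor, which adds the members below it, the median was -0.07. At the brightest probe sets none passed 1.5-fold, against 1.61% lower and 0.832% higher among all measured genes. A dimmer probe set of Fbln2 reached -0.75, beside -0.27 at its brightest set. The thrombospondins Thbs3 and Thbs2 differed by -0.54 and -0.33, with the other Thbs2 probe sets at -0.33 and -0.32, and Tgfbi and the calcium-binding protein Smoc1 by -0.48 and -0.44. The abundant members Sparc and Tnc differed by -0.07 and -0.04 at their brightest probe sets, and their other sets disagreed, at -0.56 and 0.50 for Sparc and -0.32 for Tnc. Postn, periostin, differed by 0.14. No gene of this list reached the size of the Ccn5 difference. All 27 genes named by rule from the lists kept their sign under each of the 3 other scalings. They were picked by the size of their difference, so the kept signs lend the lists no support.

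Likeness to the CCN genes was measured as the distance between log2 signals over the 2 arrays. With 2 arrays it reflects brightness and 1 difference only. The gene nearest to Ccn5 was Mdk, the heparin-binding growth factor midkine, at a distance of 0.259, reading 9.26 and 7.78. Next came Rpgrip1, a protein of the photoreceptor cilium, at 0.281 and with readings of 8.98 and 7.87, and Nnmt, which methylates nicotinamide, at 0.310 and with readings of 8.83 and 7.42. Few genes had such a pattern. Within a distance of 0.5 there were 9 genes for Ccn5, against 50 for Ccn2, 178 for Ccn1, 263 for Ccn4 and 1402 for Ccn3. The nearest genes were Tagln2, Npc2 and Itgb1 for Ccn1, Rps10, Nme2 and Rpl4 for Ccn2, Prpf18, Dennd2a and Nfia for Ccn3, and Arf4, Meg3 and Col12a1 for Ccn4, all within a distance of 0.0797.

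**Figure D4:**
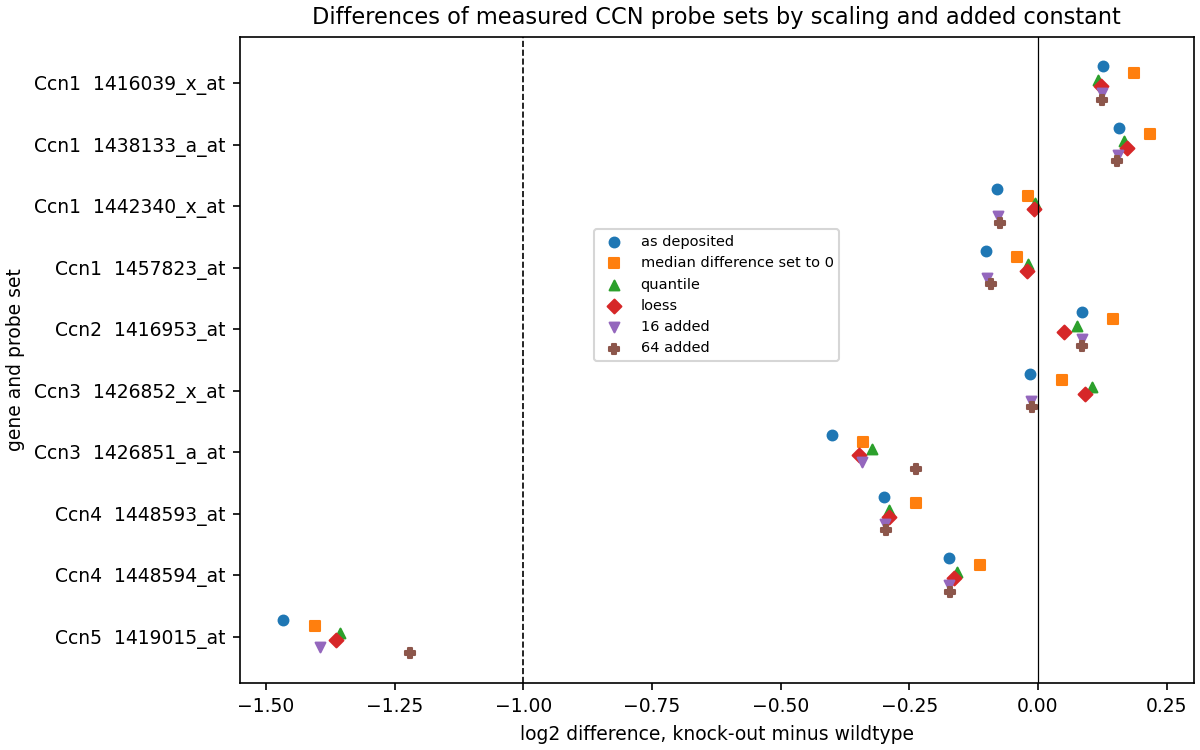
Difference between the arrays (horizontal axis, log2, knock-out minus wildtype) of the 10 measured CCN probe sets with the values as deposited, under 3 other scalings and with 16 or 64 added to the linear values (symbols), with a dashed line at 2-fold lower. Ccn5 stays left of the dashed line at -1.47 to -1.22, and the brighter Ccn3 set crosses 0.

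Ccn5 stayed at least 2-fold lower under these scalings and added constants, with its size reduced from 2.76-fold to 2.33-fold with 64 added. Its difference was -1.41, -1.36 and -1.36 under median, quantile and loess scaling, and -1.22 with 64 added to the linear values. With the floor raised to the 75th percentile, its knock-out signal fell below the floor of 7.62, and Ccn5 was then at least 2.73-fold lower rather than measured on both arrays. The other members stayed within 1.5-fold in each of these settings.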

How the data were processed

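RNA from 2 samples, 1 per genotype, was hybridized to arrays after biotin labelling from 100 ng of total RNA, per the labels' protocols. The values deposited by the authors, 1 for each probe set of an array, were taken as log2 signals from their range of 2.09 to 14.71. The sources used here do not give how they were summarized and normalized. Probe sets were named from the platform annotation: 34958 had 1 symbol, 932 several and 9160 non-control sets none. Of those with 1 symbol, 34754 had a gene identifier in RefSeq's table for GRCm38.p6, and 0 symbols changed.

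A gene was represented by its probe set with the highest mean, measured at or above each array's median over 45037 non-control sets. The median difference of measured sets was -0.06, and values were used as deposited. No test was possible with 1 array per group. Precision is limited by the number of arrays. The members and lists were chosen with earlier results of these data known. The genes named are every CCN probe set, list members past 1.5-fold with further members up to 4 by size, and the 3 genes nearest to each CCN gene. Abundant or well-known list members (Acta2, Axin2, Sparc, Tnc, Postn) and marker genes were named after their values were seen. So were list members with a dimmer probe set past 1.5-fold (Col1a2, Fn1, Pmepa1, Fgfr1, Tpm2, Fbln2, Tgfb2). Some genes of the lists are not reported here. The counting of genes past 2-fold was tested on simulated data with known changes. The simulated noise had the pooled SD of 0.199 between probe sets. It covers no variation between cultures, so the simulation tests the counting only. Python 3.11.15 with statsmodels 0.14.6 was used.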

Additional observations from a re-analysis of the deposited data

How the results depend on the processing

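No paired analysis was possible because there is a single array for the wildtype and for the knock-out. For the family, 13 alternatives were tried: 3 scalings, 3 floors, 2 added constants, 2 other ways to represent a gene, leaving out probe sets that can bind related transcripts, and sizes of 1.5-fold and 3-fold. The count of CCN genes past the size was 1, always Ccn5, in 11 of them. It was 0 with the floor at the 75th percentile, where Ccn5 and Ccn3 were no longer measured on both arrays, and 0 at 3-fold. The number of lower CCN genes was 2 or 3, and 1 at the 75th percentile floor, where 3 genes were measured. The family median ran from -0.30, without _x_at and _s_at probe sets, to 0.08, at the 75th percentile floor, and its sign differed from the deposited value in 5 of 11 alternatives. The Ccn5 difference ran from -1.47 to -1.22. Of the 10 other CCN probe sets, the brighter Ccn3 set alone changed sign. The medians of the lists of receptors, TGF-beta targets and other matricellular proteins stayed below 0 in 11 of 11 alternatives, those of the Hippo and SRF lists in 10 and 9 and that of YAP and TAZ targets in 7. The Wnt median stayed above 0 in 10. What caused these shifts was not tested. Signal below the floor left Ccn6 without a ratio.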

Other observations

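The genes beside the CCN genes on the chromosomes were looked at after the values were seen, taking the 5 genes with a probe set on each side in RefSeq's gene order for GRCm38.p6. Next to Ccn5 on chromosome 2 lies Ada, adenosine deaminase, which read 8.39 on the wildtype array and 7.50 on the knock-out array, a difference of -0.89 from 1 probe set. The other 4 measured neighbours of Ccn5 differed by -0.31 (Pkig) to 0.11 (Ywhab) at their brightest probe sets. The other 5 measured Ywhab sets differed by -0.15 to 0.08. Ccn2, which was nearly level, has lower neighbours on chromosome 10. Moxd1, a monooxygenase-like protein, read 9.21 and 8.18 (-1.03), and Arg1, arginase, read 6.87 and 5.93 (-0.94), each from 1 probe set, and 6 of its 7 measured neighbours were below 0. All 5 measured neighbours of Ccn4 on chromosome 15 were below 0 as well at their brightest probe sets, from -0.50 (Ndrg1) to -0.12 (Zfat). The other 3 measured Ndrg1 sets differed by -0.41 to 0.13. For Ccn3, on the same chromosome with 57 genes between it and Ccn4, 7 of 8 were below 0. The 7 measured neighbours of Ccn1 differed by -0.12 to 0.26 and the 6 of Ccn6 by -0.22 to 0.10. These counts stand beside 59.8% of all measured genes below 0. For Ccn5, Ccn1 and Ccn6 the counts below 0 were 3 of 5, 2 of 7 and 5 of 6. Under the other scalings 44.8% to 47.6% of all measured genes were below 0. The counts were then 6 of 7 for Ccn2, 5 of 5 for Ccn4 and 6 of 8 for Ccn3. They were 2 of 5 for Ccn5, 2 of 7 for Ccn1 and 4 or 5 of 6 for Ccn6.

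Exactly equal values on both arrays were found for 119 of the 11295 measured genes, Axin2 among them, and for no CCN probe set.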
